A study of Mus musculus with 5 samples.

Results

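The genes of the cholinergic phenotype and of the cytokine receptors linked to it were examined in sympathetic neurons. The 10 genes were chosen by name and comprised *Chat*, *Slc18a3*, and *Slc5a7* for acetylcholine synthesis and storage, *Ache*, *Bche*, and *Prima1* for acetylcholine breakdown, and *Lifr*, *Il6st*, *Cntfr*, and *Osmr* for cytokine reception. Of these, 9 were measured among 20224 genes, and all 9 were among the 15032 genes tested. *Osmr*, the receptor chain for oncostatin M, was not analysed here. *Bche* passed the filter on low counts through the *Hif1aCKO* libraries alone, since its control counts were 0 and 1.

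The neurons came from the stellate ganglia and thoracic sympathetic chains of E14.5 embryos from non-diabetic pregnancies. The 3 *Hif1aCKO* libraries (replicates 3, 4, and 5) were from embryos of the genotype *Hif1a* loxP/loxP with *Isl1*Cre, and the 2 control libraries (replicates 5 and 6) were from embryos with 1 floxed allele, *Hif1a* loxP/+, and the same Cre. Both genotypes also carried the tdTomatoAi14 reporter, which Cre switches on, and the *Prph-eGFP* transgene, and each library was made from 100 cells sorted for both colours. Cre was knocked into 1 *Isl1* allele in both genotypes and acts in every cell lineage that uses *Isl1*, so the comparison is between 2 Cre carriers that differ in the second *Hif1a* allele. The embryos' backgrounds were mixed, and the labels give neither sex nor sequencing batch.

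Most sympathetic neurons release norepinephrine, whereas a minority, such as those that innervate sweat glands, come to release acetylcholine. Acetylcholine is made from choline and acetyl-CoA by choline acetyltransferase (*Chat*), is loaded into vesicles by the vesicular acetylcholine transporter (*Slc18a3*), and, after release, is split by cholinesterases so that choline can be taken back up by the high-affinity choline transporter (*Slc5a7*). Cytokines of the leukemia inhibitory factor family can switch sympathetic neurons in culture to the cholinergic phenotype, and they act through receptor complexes built on gp130 (*Il6st*) with the LIF receptor (*Lifr*) and, for ciliary neurotrophic factor, the subunit *Cntfr*.

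Total counts per library ranged from 8254211 to 9700887. *Hif1a* itself was counted 2086 and 1584 times (normalized) in the controls and 2747, 1757, and 2135 times in the *Hif1aCKO* libraries, and the deletion removes exon 2 alone, so these gene totals do not read it. All 10 sympathetic neuron markers were detected in every library, with summed normalized counts from 57899 to 78247. Of 8 Schwann cell precursor markers, 5 were measured, and their sum was 30.6 to 55.2 in 4 libraries and 1199 in *Hif1aCKO* replicate 3, where *Fabp7* had 993. The sums of the other lists were 3.71 to 26.3 for mesenchyme (5 of 8 markers measured, *Col1a2* the highest on average), 1.07 to 38.0 for endothelium (2 of 6, *Kdr* the highest), 8.33 to 49.6 for sensory neurons (3 of 7, *Runx1* the highest), and 8.33 to 31.0 for erythroid cells (1 of 6, *Alas2*). The sensory neuron marker *Drgx* was not matched to a gene identifier, so its counts were not looked up. Of 8 motor neuron markers, 4 were measured with sums from 1704 to 3132, nearly all from *Slc10a4* and *Chodl*, whereas *Isl2*, which defines motor neurons more closely, had at most 6.49 in any library and the LIM factor gene *Lhx4* had 2.92 to 54.7, the most in *Hif1aCKO* replicate 3. The 4 chromaffin cell markers summed to less in each *Hif1aCKO* library, with 8466 and 11261 in control and 3114, 7650, and 4004 in *Hif1aCKO* replicates 3, 4, and 5, nearly all from *Chga* and *Chgb*, which neurons also express. *Pnmt*, the adrenaline-forming enzyme, was also lower in each *Hif1aCKO* library, with 29.2 and 51.0 normalized counts in control and 18.2, 3.00, and 10.7 in *Hif1aCKO* libraries, and the part of such cells in the lower members was not tested. In bulk samples of this kind, fewer cells that express a gene and less RNA per cell cannot be told apart.

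*Slc18a3*, *Ache*, and *Lifr* had lower counts in each *Hif1aCKO* library than in both control libraries, with group means at about 49.4%, 56.8%, and 54.4% of control. *Bche* was close to 0 in the controls and clearly present in 2 of the 3 *Hif1aCKO* libraries. *Prima1*, *Cntfr*, and *Il6st* overlapped between the genotypes, and *Chat* and *Slc5a7* were low or undetected in *Hif1aCKO* replicates 3 and 5 and at control levels in replicate 4. No member passed the test over all genes. Calls required an adjusted p below 0.05 from the quasi-likelihood test of edgeR (edgeR QL, Benjamini-Hochberg over all genes), a log2 fold change past 0.3 up or down, and 50 or more normalized counts on average. These limits called 0 of the 9 members and 0% of all genes tested, although 1153 genes reached an unadjusted p below 0.05, and the smallest edgeR QL adjusted p was 0.446. Errors of log2 fold changes are given as standard errors (SE). DESeq2 with the same thresholds called 0 of the 9 members and 0.297% of the 20175 genes with any count.

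Of the 9 members, 5 had a negative log2 fold change and the others a positive one. Over all genes tested, 7327 were negative and 7705 positive. At an unadjusted p-value under 0.05, 3 members were lower in *Hif1aCKO* neurons (*Slc18a3*, *Ache*, and *Lifr*), where 3.85% of all genes tested were. The 1 member that was higher at this level was *Bche*, where 3.83% of all genes were, but as it passed the filter through the *Hif1aCKO* libraries alone, nothing is read from its p-value. The median log2 fold change was 0.012 over all genes tested and -0.82 over the 9 members. The latter is the value of *Ache*, the weakest of the 5 negative ones, and does not describe the members with positive values. These 4 members rested on few control libraries, since without control replicate 6 the number fell to 1 (*Bche*), and without control replicate 5 to 2 (*Slc18a3* and *Lifr*). Control and *Hif1aCKO* libraries were also fully separated for the same 3 lower members, against 12.9% of all genes in that direction. In the other direction, with 12.9% of all genes, *Bche* was separated by normalization alone, as the lowest *Hif1aCKO* library and the highest control library each held 1 read of it. Permuting 5 libraries exactly can reach no p-value smaller than 0.1 for any one gene.

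**Figure D1:**
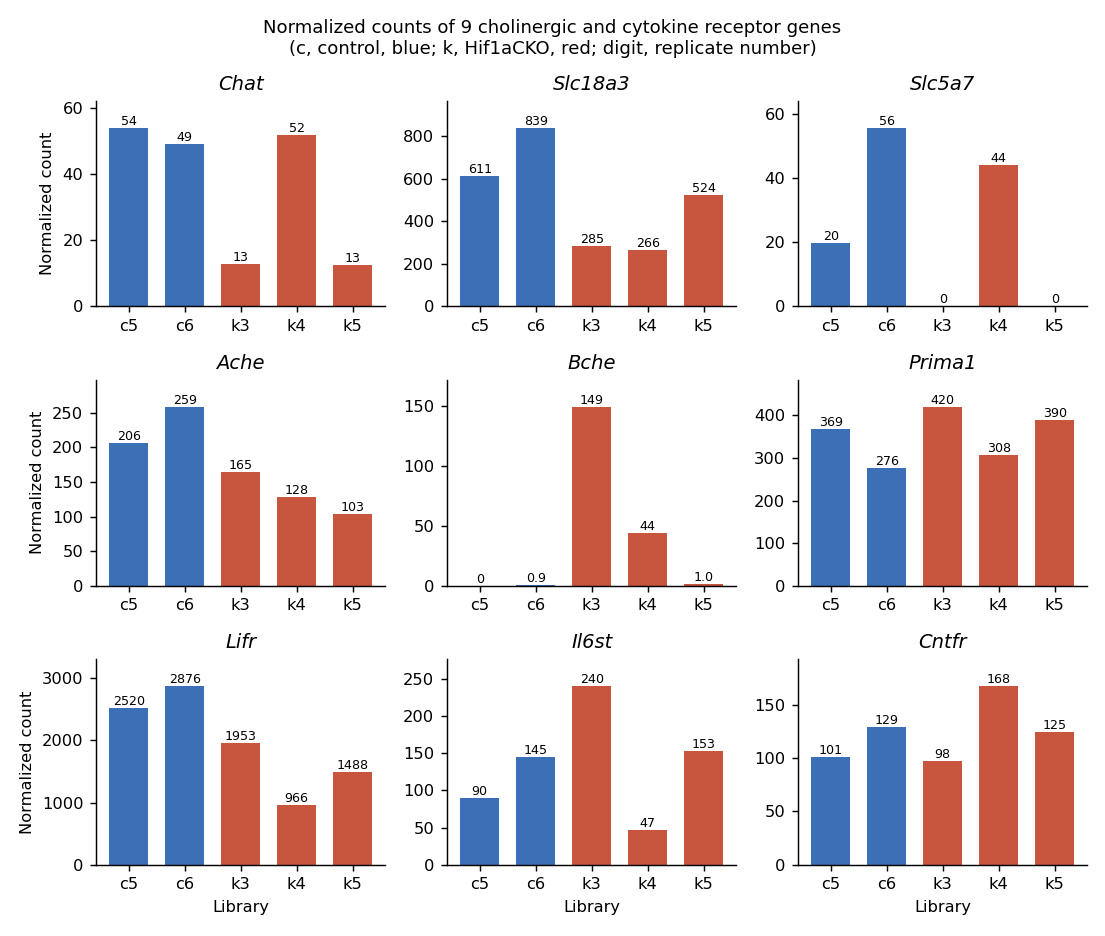
Normalized counts of the 9 measured genes in each library, 1 panel a gene with its own axis from 0. Bars stand for single libraries, c for control and k for *Hif1aCKO* with the replicate number, and the 3 red bars lie below both blue bars for *Slc18a3*, *Ache*, and *Lifr*.

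*Chat* and *Slc18a3* form the cholinergic gene locus, in which the transporter gene lies inside an intron of the enzyme gene and both are transcribed in the same direction. *Chat* (ENSMUSG00000021919) lies on chromosome 14 of GRCm38 from 32408203 to 32465989 on the minus strand, and *Slc18a3* (ENSMUSG00000100241), a gene of 1 exon, from 32462438 to 32464850. The annotated start of *Slc18a3* is 1139 bases after that of *Chat*, within the first intron. Their annotated exons share 0 bases, so reads on exons can be assigned to either gene, although unspliced *Chat* RNA would also be counted on *Slc18a3*.

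**Figure D2:**
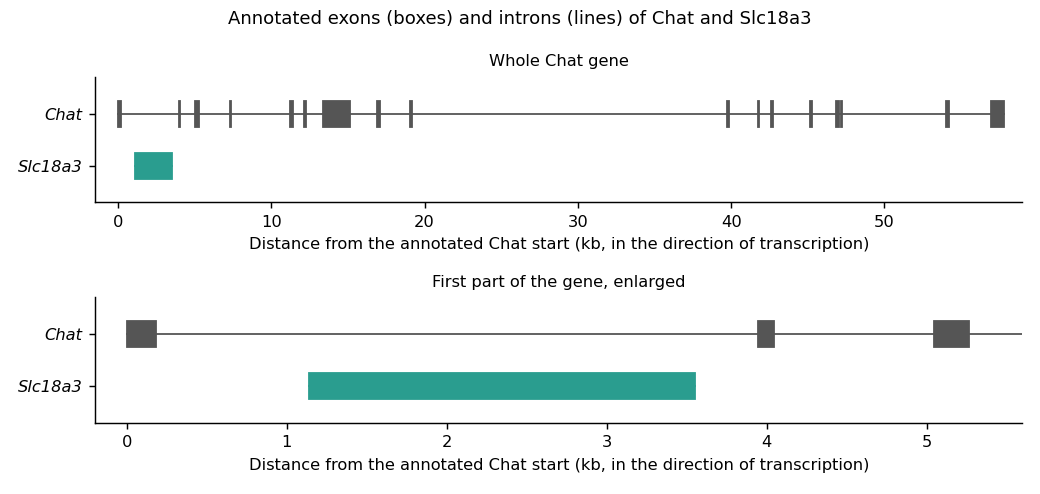
Annotated exons of *Chat* (grey) and *Slc18a3* (green) by distance in kilobases from the annotated *Chat* start, over the whole gene and enlarged. The single *Slc18a3* exon lies wholly within the first *Chat* intron, between the first and second grey boxes.

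The sequences before the start sites of both genes are shown because the pair shares a locus but differed in level and in pattern across the libraries. The windows are RefSeq's on GRCm38.p6, each printed from 250 bases before the start site to 10 bases after it. Capitals mark ACGTG or GCGTG on either strand, the core letters that HIF-1 binds, which 43.8% of all 32817 RefSeq windows of 300 bases hold. The window of *Chat* is chr14:32465900-32466159 and the *Slc18a3* window is chr14:32464841-32465100, both on the minus strand, and the second lies in the first *Chat* intron.
*Chat*: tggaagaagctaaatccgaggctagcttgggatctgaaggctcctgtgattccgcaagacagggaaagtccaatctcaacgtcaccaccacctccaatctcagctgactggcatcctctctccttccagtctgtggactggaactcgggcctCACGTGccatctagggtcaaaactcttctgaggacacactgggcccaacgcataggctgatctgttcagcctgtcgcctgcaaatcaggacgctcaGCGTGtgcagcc
*Slc18a3*: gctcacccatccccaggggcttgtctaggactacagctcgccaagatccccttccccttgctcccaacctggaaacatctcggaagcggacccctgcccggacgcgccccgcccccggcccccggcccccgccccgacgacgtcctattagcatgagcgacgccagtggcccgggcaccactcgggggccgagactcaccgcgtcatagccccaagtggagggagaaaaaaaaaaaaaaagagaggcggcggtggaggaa
The *Chat* window holds CACGTG from position -98, counted from 0 at the start site, a form that reads as the core on both strands and that 7.15% of all windows hold, and a GCGTG from position -2. The *Slc18a3* window holds no match to these letters.

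*Slc18a3*, the vesicular transporter, was by far the more abundant member of the pair. Normalized counts were 611 for control replicate 5, 839 for control replicate 6, and 285, 266, and 524 for *Hif1aCKO* replicates 3, 4, and 5. The highest *Hif1aCKO* library thus lay below the lower control, and replicates 3 and 4 were at about the same level. Control libraries averaged 725 ± 161 (SD, n = 2) and *Hif1aCKO* libraries 358 ± 144 (SD, n = 3). On the log2 scale the difference was -1.02 (SE 0.32, edgeR QL adjusted p = 0.599, unadjusted p = 0.0122), and the DESeq2 adjusted p-value was 0.148. Fits without 1 library stayed between -1.40 and -0.78.

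*Chat*, the enzyme that makes acetylcholine, was counted with 54.2 and 49.2 normalized counts in the controls and with 12.9, 51.9, and 12.6 in *Hif1aCKO* replicates 3, 4, and 5. Replicate 4 was between the 2 controls, and the other 2 *Hif1aCKO* libraries were about 4.05 times lower on average, so the groups overlapped. These levels rest on 12 to 53 reads per library. The log2 fold change of -1.0 (SE 0.78, edgeR QL adjusted p = 0.790) went to -2.01 without *Hif1aCKO* replicate 4 and to -0.67 without replicate 5.

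*Slc5a7* (ENSMUSG00000023945, chromosome 17, 54273590 to 54299034), the choline transporter that limits acetylcholine synthesis in cholinergic neurons, split the libraries in the same way. It had 19 and 60 reads in control replicates 5 and 6, 44 in *Hif1aCKO* replicate 4, and 0 in replicates 3 and 5. As normalized counts these are 19.8 and 55.7 in control and 43.9 in *Hif1aCKO* replicate 4, while a count of 0 allows up to 3 reads, or 3.22 and 2.92 normalized counts, in replicates 3 and 5. The log2 fold change was -1.36 with a standard error of 1.69 (edgeR QL adjusted p = 0.889), and it was -8.24 without *Hif1aCKO* replicate 4, where that genotype has no read left and the value depends on the fit's prior count. The biological coefficient of variation fitted to *Slc5a7*, 1.34, was above that of 99.2% of genes tested, against 0.624 for *Chat*, 0.259 for *Slc18a3*, and a median of 0.289 over all genes.

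Per length, *Slc18a3* exceeded *Chat* by 22.0 and 33.3 times in the controls and by 43.2, 9.97, and 80.8 times in *Hif1aCKO* replicates 3, 4, and 5. The lowest ratio was that of replicate 4, in which *Chat* was at control level and *Slc18a3* at its lowest, and the highest was that of replicate 5. The spread of this ratio within the *Hif1aCKO* genotype was wider than its difference between genotypes.

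*Ache* encodes acetylcholinesterase, which ends cholinergic transmission by hydrolysing acetylcholine. The gene (ENSMUSG00000023328) lies on chromosome 5 from 137287519 to 137294466 on the plus strand. It overlaps *Gm42456*, a gene annotated as lincRNA on the opposite strand, over 2.12% of its exons. The counting tool's defaults, which the methods name, use no strand and leave out reads that overlap 2 annotated genes. *Ache* had 206 and 259 normalized counts in the controls and 165, 128, and 103 in *Hif1aCKO* replicates 3, 4, and 5. Each *Hif1aCKO* library was below both controls, with the smallest gap, 41.1 normalized counts, between replicate 3 and control replicate 5. The means were 233 ± 37.2 (SD, n = 2) and 132 ± 31.2 (SD, n = 3). The log2 fold change was -0.82 (SE 0.31, edgeR QL adjusted p = 0.621, unadjusted p = 0.0307) and spanned -1.01 to -0.65 over fits without 1 library.

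The RefSeq window of *Ache*, chr5:137288004-137288263 on the plus strand, is shown beside that of *Chat* because it holds the same 6 letters, CACGTG, here from position -199, and another GCGTG from position -243, marked in capitals as above.
*Ache*: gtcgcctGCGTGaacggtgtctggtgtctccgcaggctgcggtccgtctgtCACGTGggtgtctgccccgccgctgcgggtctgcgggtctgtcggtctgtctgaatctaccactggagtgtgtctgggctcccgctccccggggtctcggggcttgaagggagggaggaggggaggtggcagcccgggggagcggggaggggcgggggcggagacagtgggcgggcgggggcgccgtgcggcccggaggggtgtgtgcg
Of the 10 genes, *Chat* and *Ache* were the 2 whose windows held CACGTG. One of these was lower in each *Hif1aCKO* library and the other overlapped between the genotypes. HIF core letters occurred in at least 1 window of 5 of the 10 genes, in 8 of their 16 windows in all. Several of these are windows of *Cntfr* that overlap each other, so the same letters can count in more than 1 window. TTCNNNGAA, the letters that STAT factors bind, occurred in 0 of the 16 windows and in 8.29% of all windows.

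*Bche* encodes butyrylcholinesterase, a second enzyme that can hydrolyse acetylcholine and one that is also made by glial cells. The gene (ENSMUSG00000027792) lies on chromosome 3 from 73635808 to 73708415. Its reads numbered 0 in control replicate 5 and 1 in control replicate 6, against 139, 44, and 1 in *Hif1aCKO* replicates 3, 4, and 5 (149, 43.9, and 0.973 normalized counts). The 2 libraries with more than 1 read are both *Hif1aCKO*, but the third *Hif1aCKO* library was at the level of the controls. *Bche* had an edgeR QL adjusted p of 0.599 and a DESeq2 one of 0.0478, and its mean normalized count, below 50, kept DESeq2 from calling it. Since it was tested through the *Hif1aCKO* libraries alone, these p-values describe the libraries and support no difference between the genotypes. Without *Hif1aCKO* replicate 3 or 4 it no longer passed the filter on low counts.

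*Hif1aCKO* replicate 3, the library with the most *Bche*, was also the one with Schwann cell precursor markers. *Fabp7* had 993 normalized counts there, 8.76 in *Hif1aCKO* replicate 5, and 0 in the other 3 libraries, and *Cdh19* and *Erbb3* had 54.7 and 53.6 there and at most 2.08 elsewhere. *Sox10*, which defines this lineage, reached 8.58 in replicate 3 and no more than 0.973 elsewhere. In *Hif1aCKO* replicate 4, which held 44 reads of *Bche*, *Fabp7*, *Cdh19*, and *Sox10* were at 0 and *Erbb3* at 0.999. The part of these cells in the *Bche* value of replicate 3 was not tested.

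**Figure D3:**
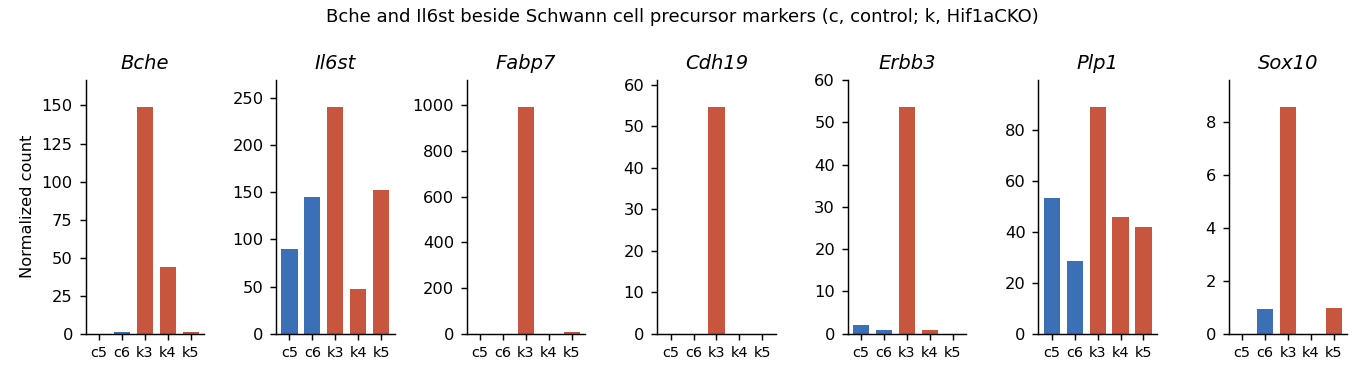
Normalized counts of *Bche*, *Il6st*, and 5 Schwann cell precursor markers in each library, each panel with its own axis from 0 (c, control, blue; k, *Hif1aCKO*, red; with the replicate number). *Fabp7*, *Cdh19*, *Erbb3*, and *Sox10* stand out in *Hif1aCKO* replicate 3 alone, whereas *Bche* is also present in replicate 4.

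*Prima1* (ENSMUSG00000041669, chromosome 12, 103196908 to 103242150) encodes the membrane anchor that tethers acetylcholinesterase to the neuronal surface. Its normalized counts were 369 and 276 in the controls and 420, 308, and 390 in *Hif1aCKO* replicates 3, 4, and 5. The groups overlapped, and the log2 fold change was 0.21 (SE 0.25, edgeR QL adjusted p = 0.885), between 0.0098 and 0.43 with each library left out. It was the steadiest of the 9 genes, with 1.52 times between the highest and the lowest library. Per length, *Prima1* exceeded *Ache* by 6.60 and 3.94 times in the controls and by 9.39, 8.88, and 14.0 times in the *Hif1aCKO* libraries, so the ratio of anchor to enzyme was higher in each *Hif1aCKO* library than in both controls. This ratio was not tested separately.

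**Figure D4:**
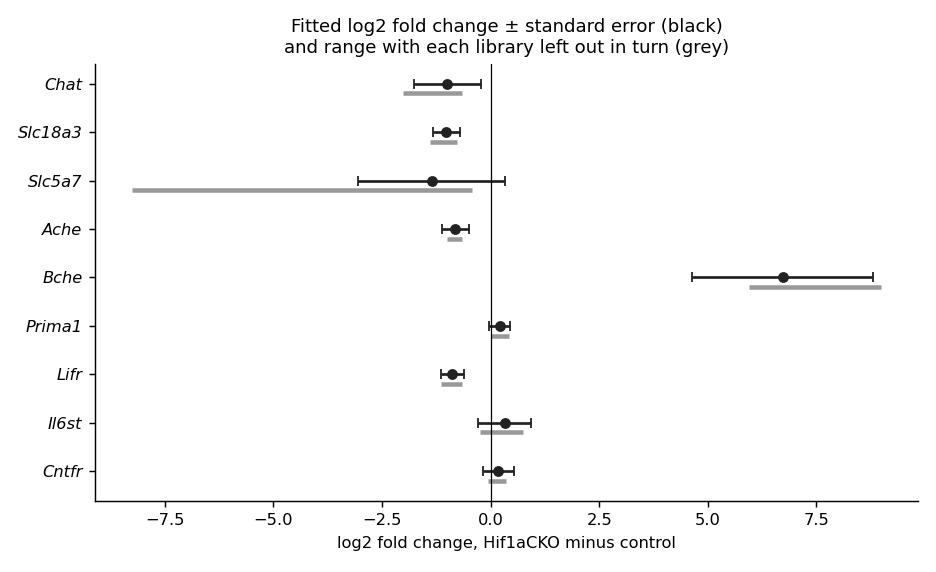
Log2 fold change of each gene (*Hif1aCKO* minus control, horizontal axis) with its standard error in black, and the range over fits that leave out 1 library in grey. *Slc18a3*, *Ache*, and *Lifr* lie at -1.02, -0.82, and -0.88 with short bars, while *Slc5a7* and *Bche* have standard errors of 1.69 and 2.08, and the grey range of *Bche* is from 3 fits.

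Among the cytokine receptors, *Lifr* (ENSMUSG00000054263, chromosome 15, 7090614 to 7197489), the signalling chain that binds leukemia inhibitory factor, had the highest counts. It had 2520 and 2876 normalized counts in the controls and 1953, 966, and 1488 in *Hif1aCKO* replicates 3, 4, and 5. The *Hif1aCKO* libraries were spread over 2.02 times and each was below both controls. Averages were 2698 ± 252 (SD, n = 2) for control and 1469 ± 494 (SD, n = 3) for *Hif1aCKO* libraries. This gave a log2 fold change of -0.88 (SE 0.26, edgeR QL adjusted p = 0.598, unadjusted p = 0.00976), and DESeq2 gave an adjusted p-value of 0.0733. It ranged from -1.14 without *Hif1aCKO* replicate 3 to -0.65 without replicate 4.

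The first of the 2 RefSeq windows of *Lifr*, chr15:7129322-7129581 on the plus strand, is shown because *Lifr* had the smallest unadjusted p-value of the 9 genes. It is rich in G and C (81.3% over the window of 300 bases), and its single HIF core match, in capitals, begins at position -158.
*Lifr*: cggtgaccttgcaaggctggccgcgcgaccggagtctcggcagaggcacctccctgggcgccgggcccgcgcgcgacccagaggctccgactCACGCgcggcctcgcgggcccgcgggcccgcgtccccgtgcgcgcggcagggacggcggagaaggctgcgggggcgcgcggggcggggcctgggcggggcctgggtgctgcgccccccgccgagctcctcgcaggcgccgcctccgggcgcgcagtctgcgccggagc

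*Il6st* (ENSMUSG00000021756, chromosome 13, 112464070 to 112510086) encodes gp130, the chain shared by receptors of this cytokine family. Its normalized counts were 89.6 and 145 in the controls and 240, 46.9, and 153 in *Hif1aCKO* replicates 3, 4, and 5. The highest and the lowest of the 5 libraries were both *Hif1aCKO*, 5.12 times apart. The log2 fold change of 0.32 (SE 0.61, edgeR QL adjusted p = 0.942) changed sign to -0.23 without *Hif1aCKO* replicate 3, the library with the Schwann cell precursor markers given above. *Hif1aCKO* replicate 5 was also above both controls, and the part of such cells in the *Il6st* values was not tested.

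*Cntfr* (ENSMUSG00000028444, chromosome 4, 41657498 to 41697089), the subunit that binds ciliary neurotrophic factor and is held to the membrane by a lipid anchor, had 101 and 129 normalized counts in the controls and 97.6, 168, and 125 in the *Hif1aCKO* libraries. The groups overlapped. The log2 fold change was 0.18 (SE 0.36, edgeR QL adjusted p = 0.948), and it changed sign to -0.051 without *Hif1aCKO* replicate 4. Per length, *Lifr* exceeded *Cntfr* by 6.44 and 5.76 times in the controls and by 5.17, 1.49, and 3.08 times in the *Hif1aCKO* libraries, and it exceeded *Il6st* by 8.37 to 29.0 times over the 5 libraries.

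Levels can be compared between genes per length, as counts per kilobase of merged exons scaled to library size (RPKM). Over the 5 libraries the order of the means was *Prima1* (32.2 RPKM), *Slc18a3* (23.9), *Lifr* (20.8), *Cntfr* (5.09), *Ache* (4.26), *Il6st* (1.39), *Chat* (0.879), *Bche* (0.661), and *Slc5a7* (0.484). The order differed by genotype. In control it was *Slc18a3* (34.4 RPKM), *Prima1* (29.4), *Lifr* (28.6), *Ache* (5.75), *Cntfr* (4.72), *Chat* (1.26), *Il6st* (1.21), *Slc5a7* (0.764), and *Bche*, and in *Hif1aCKO* neurons *Prima1* (34.0 RPKM), *Slc18a3* (16.98), *Lifr* (15.6), *Cntfr* (5.34), *Ache* (3.26), *Il6st* (1.51), *Bche* (1.10), *Chat* (0.627), and *Slc5a7* (0.297). Over all 5 libraries, the first 3 overlapped in their ranges, as did *Cntfr* with *Ache*, and the last 4 genes with their neighbours. Gaps without overlap separated *Lifr* (lowest library 10.2) from *Cntfr* (highest 6.89), and *Ache* (lowest 2.55) from *Il6st* (highest 2.47). Among genes tested, *Prima1*, *Slc18a3*, and *Lifr* were above 81.1% or more in level, whereas *Chat* was above 15.6% and *Slc5a7* above 8.33%.

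The noradrenergic genes gave the scale of these levels. *Dbh*, which converts dopamine to norepinephrine, had 275 ± 13.8 RPKM (SD, n = 2) in control and 220 ± 17.7 RPKM (SD, n = 3) in *Hif1aCKO* neurons, and *Th*, the first enzyme of the pathway, 241 ± 136 and 93.2 ± 27.8 RPKM. Per length, *Th* exceeded *Chat* by 110 and 283 times in the controls and by 260, 58.0, and 406 times in *Hif1aCKO* replicates 3, 4, and 5. The vesicular transporters were closer to each other, since *Slc18a2*, which loads monoamines, exceeded *Slc18a3* by 3.85 and 3.16 times in the controls and by 6.27, 7.65, and 2.27 times in the *Hif1aCKO* libraries.

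**Figure D5:**
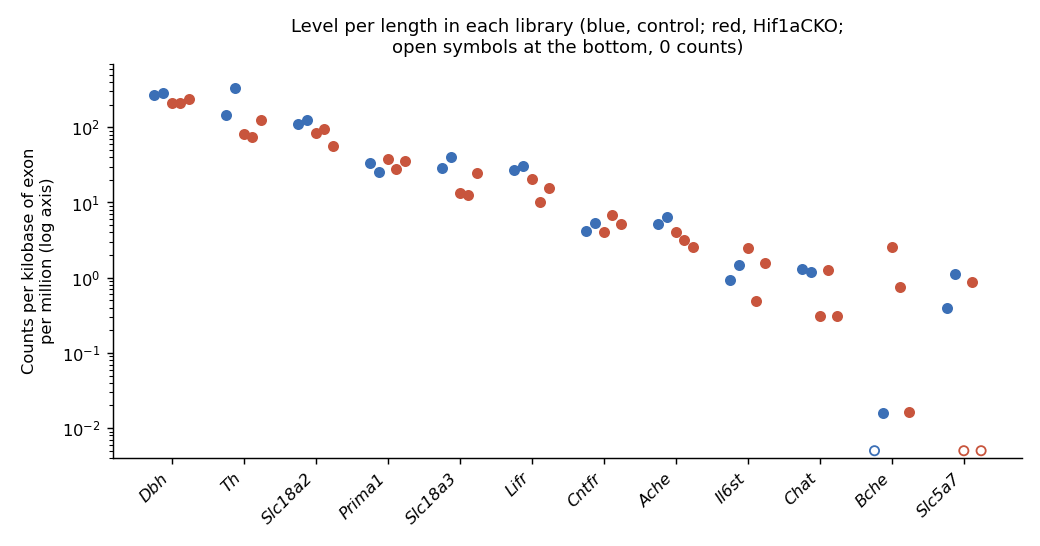
Level per length of the 9 genes and of *Dbh*, *Th*, and *Slc18a2* in each library (blue, control; red, *Hif1aCKO*), in RPKM on a log axis, ordered by mean, with open symbols at the bottom for 0 counts. *Slc18a3* sits between 12.6 and 39.8 RPKM, and *Chat*, whose locus it shares, between 0.307 and 1.32.

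The rest of the pathway and the noradrenergic genes were read from 6 lists with 54 genes, of which 42 were measured and 35 tested. Of these 35, 11 had a positive and 24 a negative log2 fold change, with a median of -0.26. The noradrenergic list, described below, held 6 of the 24 negative values. Over all genes tested, 7705 were positive and 7327 negative, with a median of 0.012. In edgeR QL 0 of the 35 were called, whereas DESeq2 called 2 at the same limits, *Isl1* and *Tbx20*, both lower. DESeq2 called 0.297% of the 20175 genes with any count, a wider set than the genes kept by the filter on low counts. At an unadjusted p-value under 0.05, 7 were lower and 1 was higher, and the number of such genes went from 8 to 3 without control replicate 6. The noradrenergic list held 3 of the 7 lower genes. Over all genes tested, 3.85% were lower and 3.83% higher at this level. Of the list of choline supply and enzyme anchoring, 6 of 9 genes were tested, 3 in each direction. Its one gene at this level was *Acly*, the enzyme that supplies cytosolic acetyl-CoA, with 5436 and 6294 normalized counts in control and 4876, 2991, and 3229 in *Hif1aCKO* libraries (log2 fold change -0.67, SE 0.21). The groups did not overlap for *Acly* or for *Slc44a5*, both lower, with the background given above. *Slc44a5* had 32.3 and 24.1 normalized counts in control and 17.2, 14.0, and 3.89 in *Hif1aCKO* libraries (log2 fold change -1.27, SE 0.91, edgeR QL adjusted p = 0.768). The choline transporter gene *Slc44a2* and the choline kinase gene *Chka* overlapped between the genotypes, with log2 fold changes of -0.21 and 0.36.

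Of the 8 ligands of the receptor family, 2 were measured and none passed the filter on low counts. *Ctf1*, cardiotrophin 1, had at most 13.0 normalized counts in any library. Of 5 other receptors of the family, *Il11ra1* (74.0 and 89.0 normalized counts in control, 39.7, 84.9, and 57.4 in *Hif1aCKO*) and *Lepr* were tested, with log2 fold changes of -0.43 and -1.64 and overlapping groups.

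Downstream of the receptors, 11 of 13 genes of JAK-STAT signalling were tested, 4 with a positive and 7 with a negative log2 fold change and a median of -0.10. *Stat3*, the main transcription factor that gp130 activates, was the one with an unadjusted p-value under 0.05. It had 574 and 596 normalized counts in control and 441, 362, and 311 in *Hif1aCKO* replicates 3, 4, and 5, each *Hif1aCKO* library below both controls, with a log2 fold change of -0.66 (SE 0.21, edgeR QL adjusted p = 0.618). The groups did not overlap for *Jak2* and *Socs2* either, both lower, with log2 fold changes of -0.63 and -0.37. *Jak1*, a kinase bound to gp130, overlapped (-0.079). *Socs3*, the feedback inhibitor that gp130 signalling induces, had 0 counts in 4 libraries and 24.0 normalized counts in *Hif1aCKO* replicate 4.

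Regulators and co-markers of cholinergic sympathetic neurons made up a list of 13 genes, of which 10 were tested, 4 with a positive and 6 with a negative log2 fold change and a median of -0.21. *Tbx20*, a T-box factor, had 147 and 239 normalized counts in control and 42.9, 66.9, and 64.2 in *Hif1aCKO* libraries (log2 fold change -1.73, SE 0.38, edgeR QL adjusted p = 0.586, DESeq2 adjusted p = 0.0477). *Isl1*, the LIM factor whose locus carries Cre in both genotypes, was lower in each *Hif1aCKO* library as well (-0.67, SE 0.10, edgeR QL adjusted p = 0.446, DESeq2 adjusted p = 2.1e-04). *Ret*, the receptor tyrosine kinase for GDNF family ligands that marks cholinergic sympathetic neurons, was the one with a higher mean at an unadjusted p-value under 0.05 (log2 fold change 1.10, SE 0.46), although control replicate 5, at 998 normalized counts, was above *Hif1aCKO* replicate 4, at 884. *Tlx3*, a homeobox factor gene, was the one gene of this list with each *Hif1aCKO* library above both controls (6.25 and 11.1 normalized counts in control, 13.9, 20.0, and 32.1 in *Hif1aCKO* libraries, log2 fold change 1.33, SE 0.92, edgeR QL adjusted p = 0.763). The neuropeptide genes *Vip* and *Sst*, named here after their values were seen because cholinergic sympathetic neurons use these peptides, overlapped between the genotypes, with log2 fold changes of 0.41 and -0.11.

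The list of 6 noradrenergic enzymes and transporters had 6 negative log2 fold changes and a median of -0.29, and the groups did not overlap for 5 of the 6, all lower, with the background given above. *Th*, *Dbh*, and *Slc18a2* had unadjusted p-values under 0.05, with log2 fold changes of -1.37, -0.32, and -0.58 (standard errors 0.35, 0.12, and 0.21). *Slc18a3* and *Slc18a2* both had lower means in *Hif1aCKO* libraries, but their order within that genotype differed. Replicate 4 had the lowest *Slc18a3* (266 normalized counts) and the highest *Slc18a2* (4401). Replicate 5 had the highest *Slc18a3* (524) and the lowest *Slc18a2* (2582). Among the sympathetic neuron markers, *Hand2* was higher (0.59) and *Stmn2* lower (-0.30) at that level.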

How the data were processed

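Bulk RNA-seq counts of 2 control and 3 *Hif1aCKO* libraries were used. Per the paper's methods and the labels, the authors trimmed reads with cutadapt (version 1.18) and Trimmomatic, removed ribosomal and UniVec reads with Bowtie (version 1.2.2) and SortMeRNA, mapped to GRCm38 with STAR (version 2.7.0c), and counted reads per gene with Rsubread at its defaults, which use no strand and leave out reads that overlap more than 1 gene, without reads of several map positions. The deposited values are raw counts per gene, with no normalization, and were used as such. Libraries held 8254211 to 9700887 counts, and the limit that a count of 0 allows covers counting error alone. No pair of libraries was a duplicate (chi-square over degrees of freedom, 14.2 to 35.1).

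Genotypes were compared over all genes in R (version 4.3.3) by edgeR (version 4.0.16), using TMM factors, filterByExpr, and the quasi-likelihood test, adjusted by Benjamini-Hochberg over 15032 genes. The standard error is the log2 fold change divided by the square root of F. Normalized counts were scaled to the mean effective library size. Levels per length used merged exons of GENCODE M21 (GRCm38), which holds 20195 of the 20224 identifiers, whereas the methods name M8. Promoter windows were RefSeq's on GRCm38.p6, and all 10 genes matched. Alternatives were RLE and upper-quartile factors, other filters on low counts (none, or at least 10 counts in every library), DESeq2 (version 1.42.0), limma-voom (limma version 3.58.1), the likelihood ratio test, the longest transcript as length, and leaving out each library. The tests were tried on simulated data, and the share of true changes that they recovered is not given here.

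The members, lists, and tests were chosen with earlier results of these data known. Named genes were the members, *Hif1a*, *Th*, *Dbh*, and, from each other list, genes with an unadjusted p-value under 0.05 or, with none, the gene with the highest mean. Further genes of the lists are named beside their counts and were chosen after their values were seen. No likeness of pattern between genes was computed, because there are 5 libraries.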

Additional observations from a re-analysis of the deposited data

How the results depend on the processing

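Over 9 fold changes of members and 104 alternative values of them, 102 kept their direction and none was called. Leaving out single libraries gave -0.23 to 0.74 for *Il6st* and -0.051 to 0.36 for *Cntfr*, and their reversals (without *Hif1aCKO* replicate 3 and replicate 4) come from the loss of that library. The number of genes called, 0, went to 60 with DESeq2, 40 with the likelihood ratio test, and 0 to 4 with each library left out (4 without control replicate 5), and was 0 otherwise. Where 1 control library remained, it was assumed to vary like the other libraries. Members with an unadjusted p-value under 0.05, 4 with all libraries, numbered 1 to 4, and genes of the 6 pathway lists, 8 with all libraries, numbered 3 to 11, with each library left out. With the longest transcript as length, control levels were 2.07 RPKM for *Chat*, 7.21 for *Ache*, 31.9 for *Lifr*, and 6.59 for *Cntfr*, because that length is shorter. RLE and upper-quartile factors moved the median log2 fold change of all genes by 0.0030 and 0.035. No paired analysis was possible because the genotypes share only replicate number 5. *Slc5a7* had no value with at least 10 counts in every library, and *Bche* had none there or without *Hif1aCKO* replicate 3 or 4. *Chat*, *Slc5a7*, and *Bche* rest on at most 139 reads in a library, which limits what their differences can show.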

Other observations

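*Chgb*, which encodes secretogranin I (chromogranin B), a cargo protein of dense-core vesicles, was, like *Chat* and *Slc5a7*, lowest in *Hif1aCKO* replicates 3 and 5, as seen after the values were known. Unlike them, it was below both controls in replicate 4 as well. It had 5514 and 8695 normalized counts in control replicates 5 and 6, 4732 in *Hif1aCKO* replicate 4, and 776 and 1106 in *Hif1aCKO* replicates 3 and 5, with a log2 fold change of -1.69 (SE 0.66, edgeR QL adjusted p = 0.621, unadjusted p = 0.0332). The related *Chga* overlapped between the genotypes, with 2923 and 2462 in control and 2317, 2915, and 2887 in *Hif1aCKO* libraries. These are values of 5 libraries, and no test of the likeness was made.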
